A study of Mus musculus with 7 samples.

Results

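Among the nuclei of mouse small cell lung tumors, some held few transcripts and gave a large part of them to ribosomal RNA. They were chosen by a fixed rule: between 300 and 1500 counted transcripts in a nucleus, at most 10% of them mitochondrial, and at least 15% of them from Rn18s-rs5, a copy of the RNA of the small cytoplasmic ribosomal subunit. A total of 1714 of the 38353 nuclei in the deposited matrices met the rule. Nuclei of the same depth range with under 5% Rn18s-rs5 served as contrast nuclei, and there were 2985 of them. The share of Rn18s-rs5 and the depth are therefore what made the groups and not results.

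The tumors came from 4 male mice. RP mice (RP1, RP2) carry Rb1 fl/fl and Trp53 fl/fl alleles, and RPC mice (RPC1, RPC2) carry in addition Casp8 alleles. The labels write the latter as Casp8-/-, whereas the design text of the series describes a conditional deletion. All 4 animals inhaled an adenovirus expressing Cre recombinase at an age of 8 to 12 weeks, and fresh-frozen lung tumor was taken at endpoint. The cell type that expressed Cre is not marked in these libraries. Nuclei of tumor and lung were sequenced together, and each genotype stands for 2 animals. The animal was the replicate, since each of the 7 libraries pooled nuclei of all 4.

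Ribosomal RNA is made in the nucleolus, joined there with ribosomal proteins and exported, so most of it lies in the cytoplasm of an intact cell. Mature messenger RNAs of short genes, transcripts of mitochondria and ribosomes are found outside the nucleus. Unspliced transcripts of long genes and a set of long noncoding RNAs, Malat1 among them, stay inside it. In single-nucleus libraries of lung tumors, nuclei of neuroendocrine tumor cells are known for counts over very long neural genes.

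Several genes that the comparison below puts first hold stretches of sequence found by a search that started from Rn18s-rs5. A few of these stretches are shown first. Rn18s-rs5 itself lies on chromosome 17 of GRCm39, at chr17:40157244-40159092, on the plus strand, and is annotated as 1849 bases of exon. Its first 139 bases, at chr17:40157244-40157382, also occur without a changed base in an intron of Gnb1l at chr16:18351942-18352080.

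Rn18s-rs5: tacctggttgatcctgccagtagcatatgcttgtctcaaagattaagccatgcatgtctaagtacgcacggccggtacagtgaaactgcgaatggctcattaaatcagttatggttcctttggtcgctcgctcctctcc

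A second, longer stretch without a gene symbol, the 3450 bases at chr9:3257700-3261149, was taken as another query. It was chosen after values had been seen, and Rn18s-rs5 aligned to it with 76.7% identity over 908 bases. Searching GRCm39 with both queries gave 26 and 67 further places at an e-value of at most 1e-20. These places lay in 43 of the genes in the deposited tables, and in 22 of them the stretch ran along the strand of the gene. A stretch that matched either query is called rRNA-like below. Of the 43 genes, 38 matched the second query. No ribosomal RNA sequence other than Rn18s-rs5 was compared, so the name does not show that a stretch comes from ribosomal RNA. Copies in different genes were close to each other. Below, capitals mark bases that differ from the partner copy. The Gphn stretch is intronic (chr12:78397704-78397947, plus strand) and 97.5% identical over 244 bases to a stretch of Lars2. The Gm15564 stretch is exonic (chr16:35802053-35802191, minus strand) and pairs with another part of Lars2. The Cmss1 stretch is intronic (chr16:57211476-57211759, minus strand), is 99.6% identical over 284 bases to one in D130009I18Rik, and lies within Filip1l as well, a gene on the opposite strand. The Il31ra stretch is intronic (chr13:112714717-112714894, minus strand) and 97.2% identical over 178 bases to one in Camk1d.

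Gphn: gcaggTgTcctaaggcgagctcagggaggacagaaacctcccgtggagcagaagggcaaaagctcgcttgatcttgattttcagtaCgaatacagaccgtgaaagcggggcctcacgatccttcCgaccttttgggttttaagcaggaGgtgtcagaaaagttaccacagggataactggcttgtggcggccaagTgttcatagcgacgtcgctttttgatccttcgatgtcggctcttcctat
Gm15564: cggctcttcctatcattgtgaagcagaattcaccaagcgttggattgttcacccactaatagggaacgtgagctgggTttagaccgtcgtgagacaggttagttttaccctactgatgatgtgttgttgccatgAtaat
Cmss1: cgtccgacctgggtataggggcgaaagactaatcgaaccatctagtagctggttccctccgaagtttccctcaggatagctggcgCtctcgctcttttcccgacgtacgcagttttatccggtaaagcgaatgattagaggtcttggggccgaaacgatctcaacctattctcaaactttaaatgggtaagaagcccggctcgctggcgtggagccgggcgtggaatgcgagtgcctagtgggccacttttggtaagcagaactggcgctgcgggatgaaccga
Il31ra: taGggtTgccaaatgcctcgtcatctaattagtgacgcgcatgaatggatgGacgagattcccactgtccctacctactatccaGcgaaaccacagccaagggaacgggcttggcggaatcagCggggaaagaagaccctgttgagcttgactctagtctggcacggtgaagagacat

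A read from such a stretch could fit several places where the copies share every base. How such reads were counted was not examined, so the counts of these genes are uncertain.

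The matrices held 32299909 to 72446861 transcripts per animal in 8413 to 10865 nuclei, of which 8363 to 10861 met the mitochondrial limit and are called kept nuclei. No full barcode was shared between animals or repeated within one. The first barcoding round places each animal in wells of its own, and 1 well stood apart. In well C11 of RP1 the median kept nucleus gave 14.2% of its counts to Rn18s-rs5, against 3.35% in C12, the other well of this animal, and 1.80% to 7.35% in the 7 wells of the other animals. Of the 876 members of RP1, 711 came from C11 and 165 from C12. Of its 464 contrast nuclei, 5 came from C11. Nearly all contrast nuclei of RP1 thus came from C12, which held 459 contrast nuclei beside its 165 members, so the groups can be set side by side within C12 but not within C11. Within C12, mitochondrial genes took 4.70% of counts in members and 0.349% in contrast nuclei, and genes that span 100 kb or more took 29.6% and 46.6%. Counts of called genes and some of the differences below are given with and without C11. Where C11 or C12 is not named, values of RP1 hold both wells, so its members and contrast nuclei then differ in well too.

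**Figure D1:**
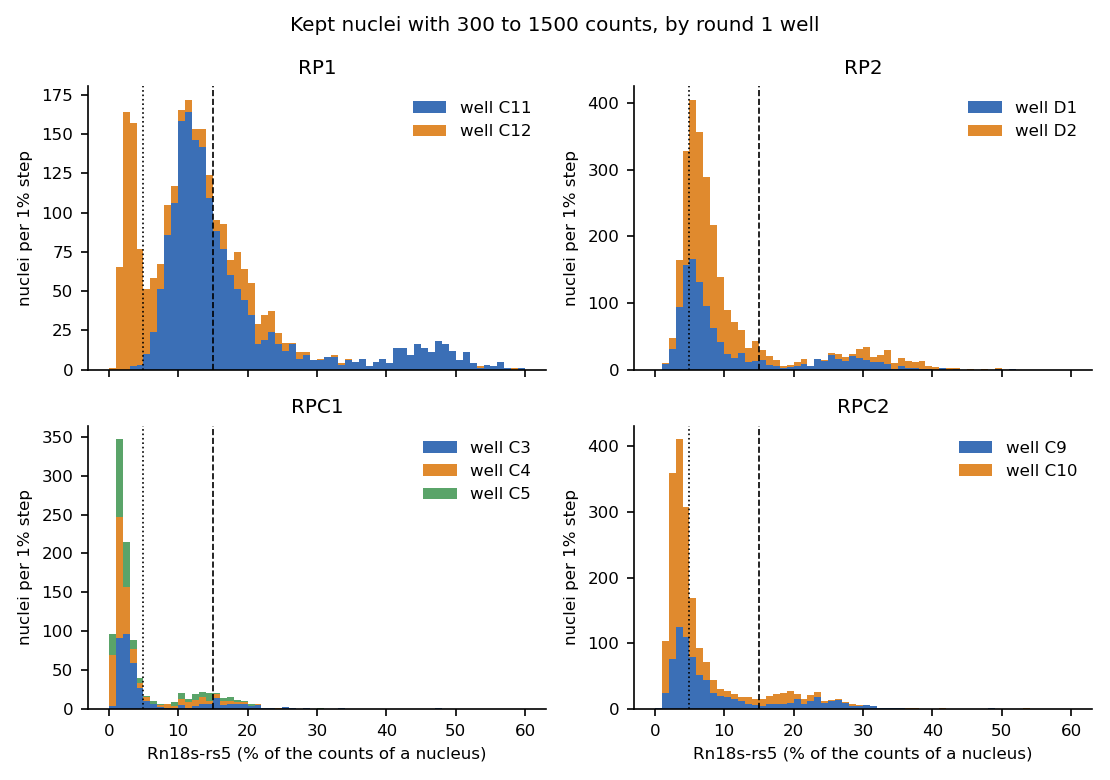
Kept nuclei with 300 to 1500 counts by their share of Rn18s-rs5 (x axis, percent of the counts of a nucleus; y axis, nuclei per step of 1%), with the barcoding wells of each animal stacked in color. The dashed line at 15% is the lower limit of the members and the dotted line at 5% the upper limit of the contrast nuclei. Well C11 of RP1 lies to the right of C12.

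The members were spread differently over the share of Rn18s-rs5 in each animal. In RPC1, 63 nuclei lay between 12% and 15%, 72 between 15% and 20%, and 17 between 20% and 25%. In RP2, 77 lay between 15% and 20%, 65 between 20% and 25%, 122 between 25% and 30%, and 174 between 30% and 40%. In RPC2, the step from 15% to 20% held 111 nuclei and the step from 12% to 15% held 53. In RP1, 61 nuclei lay between 30% and 40% and 164 between 40% and 60%, and 174 of the 177 nuclei above 40% were from C11. The 15% limit thus crossed a separate group of nuclei in RPC1, lay below one in RP2 and crossed the main mass of C11. The median share of Rn18s-rs5 in members was 20.7% (RP1), 28.8% (RP2), 17.8% (RPC1) and 21.3% (RPC2). Their median depth was 905.5, 838, 1084 and 947 counts in the same order, against 1178, 1149, 1216 and 1157 in contrast nuclei. Without Rn18s-rs5, a median of 675, 593, 862 and 726 counts were left.

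Of the kept nuclei of RP1, 10.5% were members (exact binomial 95% interval 9.83 to 11.2), and of those of RP2, 5.16% (4.71 to 5.64). In the RPC animals the share was smaller, 0.902% for RPC1 (0.733 to 1.1) and 2.77% for RPC2 (2.46 to 3.11). These intervals cover counting error only. Both RP animals lay above both RPC animals. RP averaged 7.82% ± 3.76 and RPC 1.84% ± 1.32 (both SD, n = 2), which differ by -5.98 points. The two-sided exact permutation test gave p = 0.333, the smallest value that 2 against 2 animals allow. Without RP1 the difference was -3.32 points, and without well C11 alone -2.68 points, since C12 of RP1 held 3.87% members and C11 17.3%. Within an animal, the 7 sublibraries ranged from 8.93% to 14.4% (RP1), from 4.13% to 6.14% (RP2), from 0.390% to 1.28% (RPC1) and from 2.11% to 3.19% (RPC2). The wells of the other animals held 5.37% and 4.96% members in RP2, 1.42%, 0.656% and 0.540% in RPC1, and 3.40% and 2.19% in RPC2.

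The genes given with the rule mark these nuclei in all 4 animals, as a description. Ptma (ENSMUSG00000026238) encodes prothymosin alpha, a small acidic nuclear protein with a short and abundant messenger RNA. It was at 2217 CPM (counts scaled to a fixed total, without Rn18s-rs5) in members and 495 in contrast nuclei of RP1, 4526 and 433 in RP2, 6502 and 710 in RPC1, and 7888 and 908 in RPC2. Every animal was higher in members, and the members' values did not overlap those of the contrast nuclei. Actb (ENSMUSG00000029580), the cytoplasmic beta actin, was at 488 and 143 CPM in RP1, 884 and 68.0 in RP2, 1391 and 198 in RPC1, and 1337 and 141 in RPC2. Tmsb4x (ENSMUSG00000049775), thymosin beta 4, which binds actin monomers, was at 87.3 and 35.7, 212 and 17, 336 and 38.1, and 379 and 53.5 CPM in the same order. Within C12 of RP1, Ptma was at 4775 CPM in members and 495 in contrast nuclei, further apart than in RP1 as a whole. Members of C11 had Ptma at 1631 CPM. Just outside the limit, at 14% to 15% Rn18s-rs5, RP1 had Ptma at 923 CPM, RP2 at 2505, RPC1 at 5857 and RPC2 at 6645. Just inside, at 15% to 16%, it was at 914, 1169, 6925 and 7950 CPM. The limit therefore marks no step in the level of Ptma in RP1, and the other animals hold 16 to 43 nuclei on either side of it.

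**Figure D2:**
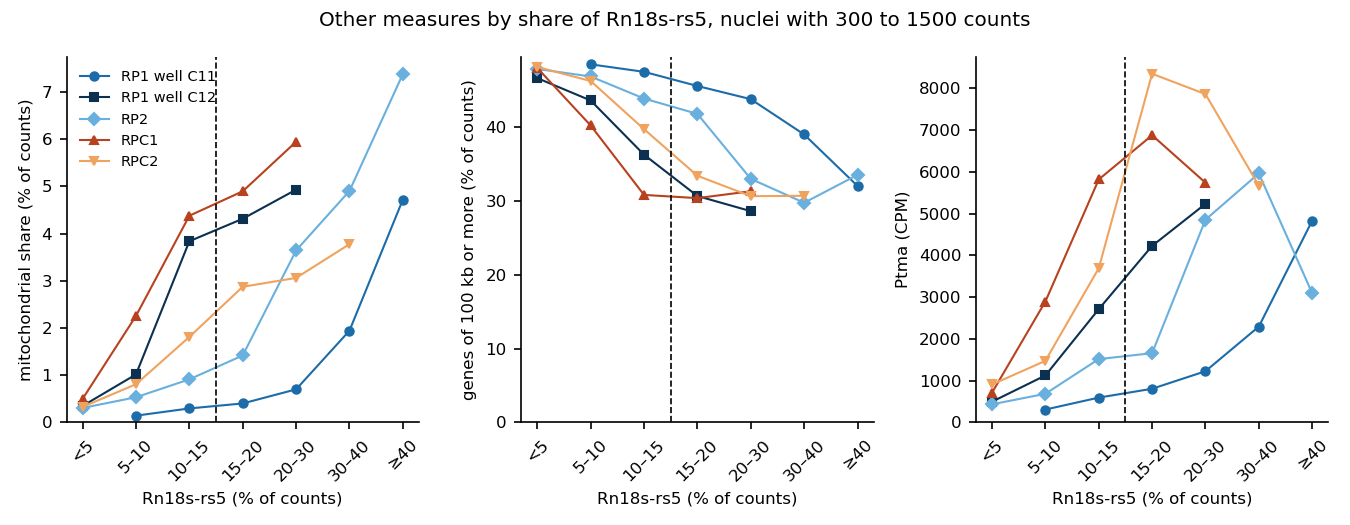
Mitochondrial share of counts (left, percent), share of counts from genes with a span of 100 kb or more (middle, percent) and Ptma (right, CPM) in nuclei with 300 to 1500 counts, by steps of their Rn18s-rs5 share (x axis, percent); RP1 is drawn per well, and steps with few nuclei are left out. In C11 the mitochondrial share reached 4.72% only at 40% Rn18s-rs5 and above, while C12 was at 4.31% between 15% and 20%.

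Read across steps of the Rn18s-rs5 share, the 2 wells of RP1 followed different scales. Mitochondrial genes took 0.143% of the counts of C11 nuclei with 5% to 10% Rn18s-rs5, 0.402% between 15% and 20%, 0.701% between 20% and 30%, 1.94% between 30% and 40%, and 4.72% in the 174 nuclei at 40% or more. In C12 they took 0.349% below 5%, 1.02% between 5% and 10%, and 3.84% already between 10% and 15%. Ptma went along the same steps in C11 from 308 CPM to 4830 CPM. Members of C11 with 15% to 20% Rn18s-rs5 thus had a mitochondrial share near the 0.349% of the contrast nuclei of C12, and those with 20% to 30% lay above it. Ptma in these steps of C11, at 806 and 1225 CPM, lay above the 495 CPM of those contrast nuclei. Members of C11 at 40% or more had mitochondrial shares near those of the members of C12. In RP2 the mitochondrial share went from 0.306% below 5% to 1.42% between 15% and 20% and 3.64% between 20% and 30%, and in RPC1 it was already 4.38% between 10% and 15%.

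The contents of the nuclei were compared within each animal by 6 measures, all of which differed in the same direction in 4 of 4 animals. With 4 animals the two-sided exact sign-flip permutation test cannot go below p = 0.13, which each of the 6 reached. The groups were cut by Rn18s-rs5, but its counts were left out of every total. Mitochondrial genes took 1.89% of counts in members and 0.348% in contrast nuclei of RP1, 3.74% and 0.306% in RP2, 5.19% and 0.499% in RPC1, and 3.07% and 0.329% in RPC2. The mean difference was 3.10 ± 1.32 points (SD, n = 4), and 3.80 ± 0.89 without C11. Ribosomal protein genes took 0.419% and 0.154% in RP1, 0.695% and 0.149% in RP2, 0.494% and 0.135% in RPC1, and 0.727% and 0.173% in RPC2. Members lay above contrast nuclei in both measures without overlap between any animals. Nuclear-retained long noncoding RNAs went the other way. They took 1.07% of counts in members and 1.36% in contrast nuclei of RP1, 0.804% and 1.60% in RP2, 0.327% and 0.942% in RPC1, and 0.571% and 1.63% in RPC2. Here the members of RP1 lay above the contrast nuclei of RPC1, so the order held within animals only.

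The span of a gene, from its first to its last annotated base with introns, split the counts. Genes with a span under 10 kb took 7.23% of counts in members and 5.19% in contrast nuclei of RP1, 9.93% and 5.17% in RP2, 10.4% and 4.46% in RPC1, and 11.9% and 5.43% in RPC2. Genes of 100 kb or more took 40.3% and 46.6% in RP1, 33.7% and 47.8% in RP2, 30.8% and 48.0% in RPC1, and 31.9% and 48.1% in RPC2. Members were thus richer in short genes and poorer in long ones in each animal, with a mean difference of 4.79 ± 1.97 and -13.5 ± 4.95 points (SD, n = 4). RP1 differed least. Without C11 the long-gene difference was -16.2 ± 1.42 points. Thinned to 200 counts, a median member of RP1, RP2, RPC1 and RPC2 held 178, 157, 178 and 181 genes, and a median contrast nucleus 185, 186, 187 and 185. The thinning left out 4 members of RP1. Without thinning, the medians were 529, 426, 678 and 594 genes in members and 854, 834, 895 and 849 in contrast nuclei, which differ in depth.

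Gene by gene, counts of members and of contrast nuclei were summed per animal and fitted with the animal as a block (edgeR). Since the rule drew these groups from the same nuclei, the fit describes the members and is no independent test. Of 8321 genes tested, 1414 were higher (17%) and 989 lower (11.9%) in members past the threshold of an adjusted p of 0.05, 28.9% in all, and nothing is read from these shares. Without C11, 22.7% were higher and 22% lower of 7125. The same cuts at 15% and 5% were then applied to nuclei with over 1500 counts, which the rule did not use. These groups were again made by the share of Rn18s-rs5, and only the depth was new. Genes that follow this share can therefore recur, and this fit is no independent test either. In this depth range, 1191, 385, 89 and 150 rRNA-rich nuclei of RP1, RP2, RPC1 and RPC2 were set against 2765, 1734, 9148 and 5577 rRNA-poor ones. Of 14876 genes tested by edgeR, 865 rose (5.81%) and 68 fell (0.457%), 6.27% in all. Among the calls 92.7% were rises, and with DESeq2 73.8%. Well C11 gave 1127 of the 1191 rRNA-rich nuclei of RP1, and C12 gave 2763 of its 2765 rRNA-poor ones. Without C11, in a fit added after the data had been seen, 1686 genes rose (12.3%) and 1593 fell (11.6%) of 13693. Leaving out RPC2 left 344 calls, and leaving out RP1 1827. Of the 1414 genes higher in members, 583 rose in the deeper nuclei too (41.2% of the 1414 and 67.4% of the 865), and 1350 had the same sign. Of the 989 lower genes, 43 fell there (4.35% of the 989 and 63.2% of the 68), and 956 had the same sign. The deeper nuclei come from the same animals and wells as the members.

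**Figure D3:**
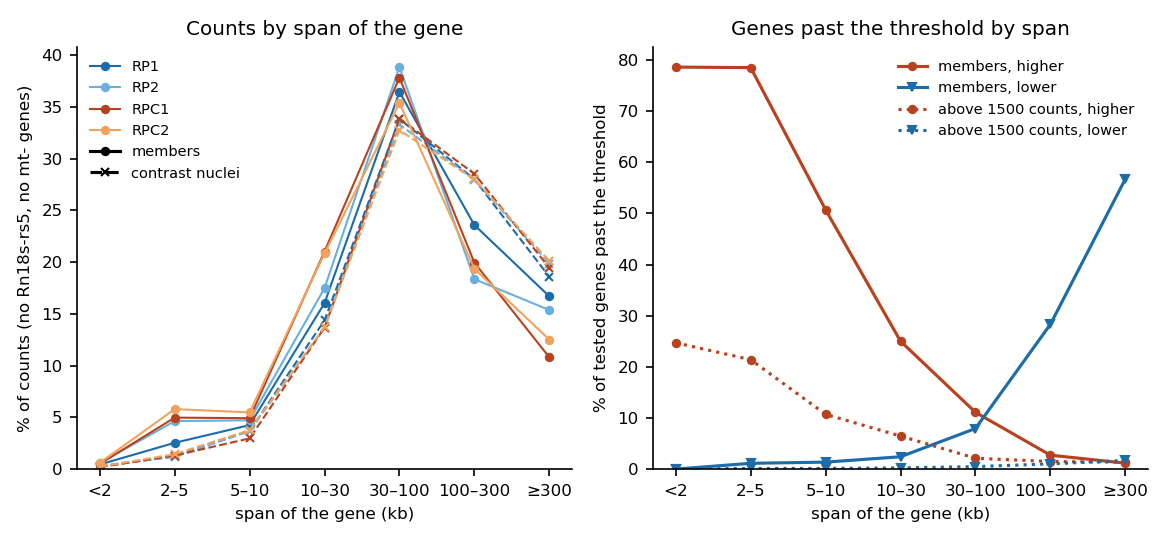
Left, percent of counts (without Rn18s-rs5 and mitochondrial genes) by span of the gene in kb, for members (solid lines, dots) and contrast nuclei (dashed lines, crosses) of each animal. Right, percent of the tested genes of each span that were past the threshold (edgeR, adjusted p under 0.05) as higher or lower in members and, dotted, in rRNA-rich nuclei above 1500 counts. Of genes under 2 kb 78.6% were higher in members and of genes of 300 kb or more 56.7% were lower.

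The fit followed gene span as well. In members, 78.6% of the tested genes under 2 kb were higher and none lower, while of genes of 300 kb or more 1.16% were higher and 56.7% lower. In the deeper nuclei, 24.7% of genes under 2 kb rose, beside a background of 5.81%, and 1.36% of genes of 300 kb or more rose. Of the longest genes 1.69% fell, and without C11 this share was 54.5%. With all wells their median log2 difference in the deeper nuclei was -0.45, and that of genes of 100 to 300 kb -0.30, beside -0.0448 over all genes. The number of calls among long genes therefore moved with that well, while their median lay below that of all genes with the well kept.

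The 12 genes with the largest differences upward in members, among those past the threshold with an average of at least 7 on the log2 CPM scale, formed 3 kinds, with Cdk8 outside them. The mitochondrial transcripts come first. mt-Rnr2, the RNA of the large mitochondrial ribosomal subunit, was at 11811 CPM in members and 2105 in contrast nuclei of RP1, 25262 and 1985 in RP2, 30911 and 3132 in RPC1, and 18168 and 1935 in RPC2. Within C12 of RP1 it was at 28054 and 2117 CPM. The log2 difference was 3.34 ± 0.33 (SE, n = 4 animals). For the deeper nuclei it was 2.45 ± 0.38 (edgeR adjusted p = 0.000913). mt-Rnr1, the RNA of the small subunit, differed by 3.32 ± 0.30 in members and by 2.30 ± 0.36 in the deeper nuclei (edgeR adjusted p = 0.00097). mt-Co1, a subunit of cytochrome c oxidase, was at 386 and 87.2, 420 and 37.4, 1171 and 102, and 569 and 70.3 CPM in the same order of animals, and its difference was 3.19 ± 0.23. All 9 mitochondrially encoded genes tested were higher in members, with a median log2 difference of 3.31 beside -0.0432 over all genes. All 9 also rose in the deeper nuclei, with a median of 2.20 beside -0.0448.

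Genes holding an rRNA-like stretch as defined above, or lying opposite one, were the second kind. Gm15564 is placed here only by its match to Lars2. Lars2 (ENSMUSG00000035202), the mitochondrial leucyl-tRNA synthetase, was at 43985 CPM in members and 9542 in contrast nuclei of RP1, 44200 and 4816 in RP2, 24826 and 2266 in RPC1, and 13361 and 1752 in RPC2. Gm15564, whose stretch is printed above, was at 931 and 61.4, 4144 and 394, 1043 and 123, and 541 and 48.2 CPM. Cmss1, a protein linked to the small ribosomal subunit, was at 8276 and 997, 12094 and 1337, 7476 and 691, and 18002 and 3744 CPM. Within C12 of RP1, Lars2 was at 91711 CPM in members and 9575 in contrast nuclei, Gm15564 at 685 and 61.9, and Cmss1 at 9603 and 1003. Members were higher in each animal, but the levels themselves ranged widely between animals. Il31ra, a receptor chain for interleukin-31, ranged most: 520 and 77.3, 5168 and 372, 719 and 20.7, and 916 and 151 CPM. The log2 differences in members were 3.11 ± 0.35 for Lars2, 3.63 ± 0.23 for Gm15564, 3.15 ± 0.29 for Cmss1 and 3.61 ± 0.30 for Il31ra. The deeper nuclei gave 2.23, 2.84, 2.39 and 3.33, each past the threshold. Gm19951 (3.44 ± 0.31 in members) and Filip1l (3.44 ± 0.27), a relative of a filamin-binding protein, belong here as well, with 2.92 and 2.94 in the deeper nuclei. Within C12 of RP1, Filip1l was at 364 CPM in members and 69.9 in contrast nuclei, beside 1504 and 71.3 in RP1 as a whole. Cdk8, a kinase of the Mediator complex, was at 7127 and 967, 55624 and 5192, 3616 and 630, and 6565 and 842 CPM, and its difference was 3.12 ± 0.31 in members and 2.95 ± 0.33 in the deeper nuclei. Neither Cdk8 nor Gm15564 was among the 43 genes of the search. Gm15564 matches a stretch of Lars2 that lies beside the part of Lars2 found by the search.

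The searched genes were chosen after values had been seen, so they are described by strand, and the difference between strands was not tested. Of 14 tested genes with the stretch on their own strand, 10 were higher in members and 3 lower, with a median log2 difference of 2.52. Above 1500 counts 11 of 20 rose and none fell, with a median of 1.48. Of 13 tested genes with it on the opposite strand only, 3 were higher and 1 lower, with a median of 0.19. The 3 were D130009I18Rik at 3.59, Filip1l at 3.44 and Jarid2, a Polycomb cofactor, at 1.76. Gphn, which encodes the scaffold protein gephyrin, was higher by 2.56 and Camk1d, a calcium-dependent kinase, by 2.53. Mir6236, a short gene outside the naming rule and chosen after its value was seen, was at 176 and 1.98 CPM in RP1, 174 and 18.7 in RP2, 11.6 and 0 in RPC1, and 55.5 and 3.06 in RPC2. It lies near the low end of what these sums can measure.

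Short protein-coding genes were the third kind. Besides Ptma (3.14 ± 0.27 in members, 2.47 ± 0.30 in the deeper nuclei, edgeR adjusted p = 0.00015), Tubb5 was named by the rule. Tubb5, a beta tubulin, was at 246 and 53.5 CPM in RP1, 300 and 39.1 in RP2, 568 and 56.6 in RPC1, and 731 and 87.9 in RPC2. Its difference was 3.06 ± 0.21 in members and 2.10 ± 0.24 in the deeper nuclei (edgeR adjusted p = 0.000101). Actb and Tmsb4x differed by 3.04 ± 0.25 and 2.89 ± 0.27 in members, and rose by 2.26 and 2.5 in the deeper nuclei.

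**Figure D4:**
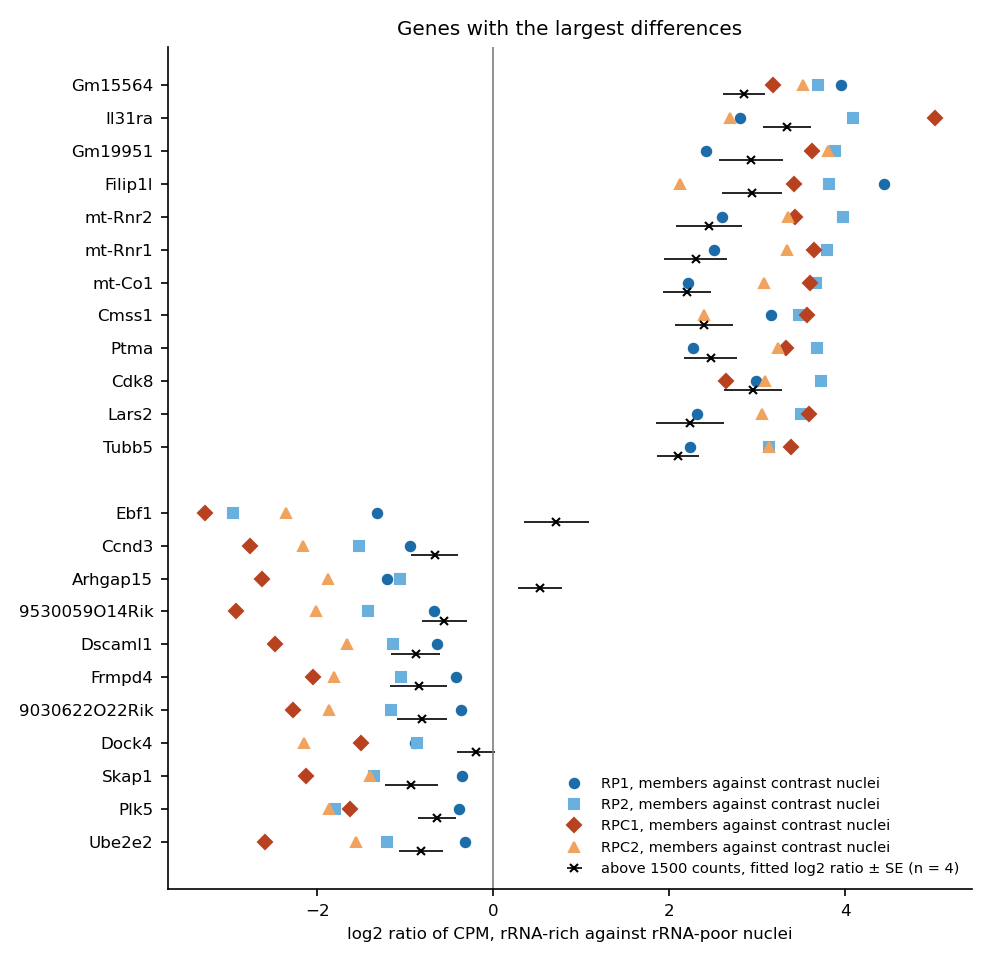
Log2 ratio of CPM between rRNA-rich and rRNA-poor nuclei for 12 genes higher and 11 genes lower in members, from the naming rule, 1 marker per animal for nuclei of 300 to 1500 counts. Crosses with bars give the fitted log2 ratio ± SE (n = 4 animals) in nuclei above 1500 counts. The 12 upper genes lie right of 0 in both depth ranges, while Ebf1 and Arhgap15 of the lower genes lie on opposite sides of 0.

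Of the 12 genes with the largest differences downward, 9 span 100 kb or more, and neural and immune genes are among them. Of the 12 upward, 2 span 100 kb or more and 6 span under 10 kb, namely mt-Rnr1, mt-Rnr2, mt-Co1, Gm19951, Ptma and Tubb5. Among the 8321 genes tested, leaving out mitochondrial ones, 1436 span 100 to 300 kb and 432 span 300 kb or more. There, 28 span under 2 kb, 177 span 2 to 5 kb and 440 span 5 to 10 kb. Ebf1, a transcription factor of B cells and mesenchyme, was at 95.3 CPM in members and 264 in contrast nuclei of RP1, 6.83 and 90.1 in RP2, 23.2 and 279 in RPC1, and 18.5 and 118 in RPC2 (log2 difference -2.04 ± 0.29). Above 1500 counts its difference was 0.72 ± 0.37 (edgeR adjusted p = 0.251), and 1.1 without C11 (adjusted p = 0.011). The fitted values thus had opposite signs in the depth ranges, and this difference was not tested. Arhgap15, a GTPase regulator of blood cells, showed -1.55 ± 0.26 in members and 0.53 ± 0.25 in the deeper nuclei. Dscaml1, a neural adhesion molecule, was at 603 and 1019, 328 and 899, 151 and 935, and 231 and 805 CPM, a difference of -1.35 ± 0.23. Frmpd4, a postsynaptic scaffold protein, was at 275 and 400, 201 and 518, 475 and 2169, and 375 and 1442 CPM. Ccnd3, a D-type cyclin, differed by -1.63 ± 0.24. Dock4, Skap1, Plk5, Ube2e2, 9530059O14Rik and 9030622O22Rik differed by -1.22 to -1.39. RP1 differed less than the mean of the animals in most of these genes. None of the 12 was past the threshold in the deeper nuclei. Without C11, 9 of them fell there, among them Ccnd3 by 0.68, 9530059O14Rik by 0.75, Plk5 by 0.89, Ube2e2 by 1.09, Frmpd4 by 1.15, 9030622O22Rik by 1.18, Dscaml1 by 1.19 and Skap1 by 1.29 on the log2 scale.

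Gene lists followed the same split, and each is given by its counts and median beside the shares and medians of all genes above. Of 64 ribosomal protein genes tested in members, 62 were higher and none lower (median 2.10). Above 1500 counts 64 of 82 rose (median 1.37), and 75 of 81 without C11 (median 1.77). Rpl13a, a protein of the large subunit, was at 228 CPM in members and 73.3 in contrast nuclei of RP1, 464 and 81.6 in RP2, 290 and 42.4 in RPC1, and 365 and 56.6 in RPC2, and rose by 1.78 ± 0.19 in the deeper nuclei. Of 34 translation factor genes, 26 were higher in members and 20 rose in the deeper nuclei (medians 1.33 and 0.75). Eef1a1, the elongation factor that brings tRNAs to the ribosome, was at 444 and 153, 659 and 116, 626 and 137, and 749 and 118 CPM. It rose by 1.79 ± 0.27 in the deeper nuclei. Pabpc1, which binds poly(A) tails, was higher in members by 2.32 ± 0.22 and rose by 1.57 ± 0.22.

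Other lists of short, highly expressed genes were alike. Of the cytoskeleton genes, 19 of 25 were higher in members and 19 of 31 rose in the deeper nuclei. Stmn1, stathmin, a tubulin-binding protein, was at 530 and 119, 1072 and 143, 950 and 133, and 1018 and 179 CPM. Of the immediate early and heat shock genes, 17 of 17 were higher and 15 of 28 rose. Hsp90ab1, a cytosolic chaperone, was higher by 2.53 ± 0.21 and rose by 1.90 ± 0.23, and Hspa8, another, by 2.04 ± 0.21 and 1.29 ± 0.23. Of replication histone genes, which lack introns, 7 of 7 were higher (median 3.01) and 8 of 18 rose (median 1.76). H1f4, a linker histone, was at 88.9 and 33.7, 109 and 23.8, 243 and 17.4, and 245 and 36.7 CPM. Of messenger RNAs of abundant nuclear proteins, 24 of 28 were higher in members and 20 of 28 rose in the deeper nuclei. Ncl, the nucleolar protein nucleolin, was at 727 and 275, 1161 and 258, 1472 and 343, and 1735 and 437 CPM.

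Of 34 nuclear genes of the respiratory chain, 15 were higher and 1 lower in members, and 22 of 74 rose in the deeper nuclei (medians 0.86 and 0.71). Atp5b, a subunit of the ATP synthase, was higher by 1.98 ± 0.24, and Ndufs4, a complex I subunit with a long gene, was the lower one at -0.81 ± 0.25. Of glycolysis genes 6 of 10 were higher and 6 of 16 rose. Ldha, lactate dehydrogenase A, rose by 0.79 ± 0.19 in the deeper nuclei. Of genes of cell death and stress 7 of 14 were higher and 5 of 22 rose, and Atf4, a transcription factor of the integrated stress response, rose by 1.05 ± 0.21.

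**Figure D5:**
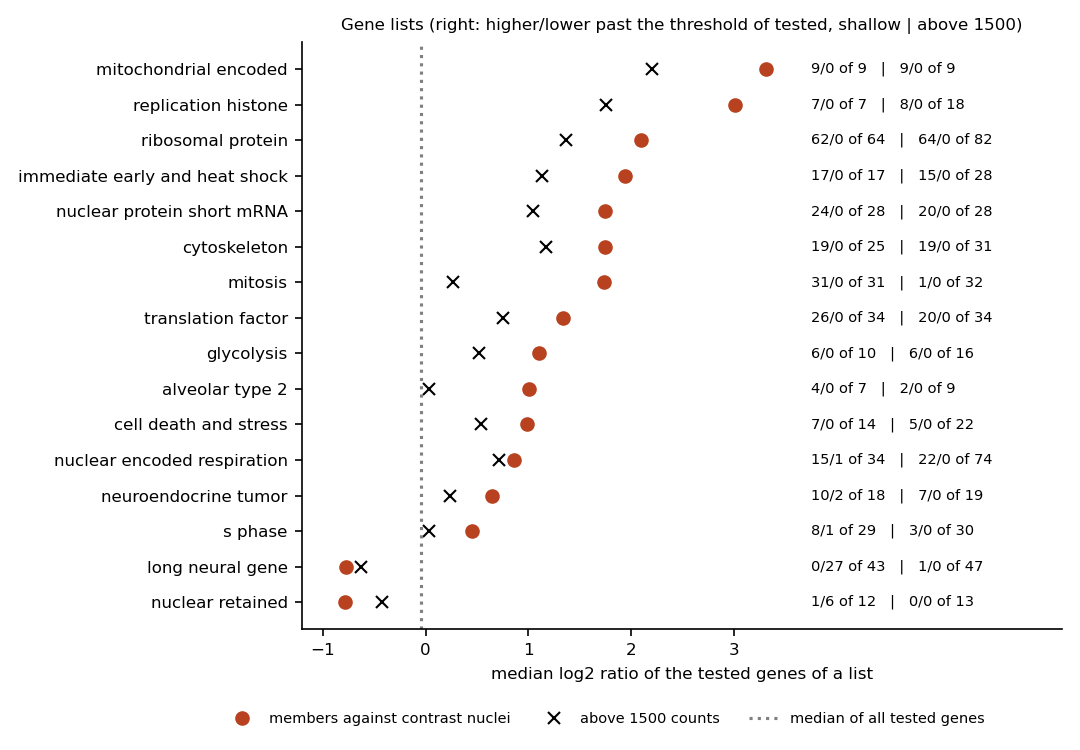
Median log2 ratio over the tested genes of each list, for members against contrast nuclei (dots) and for rRNA-rich against rRNA-poor nuclei above 1500 counts (crosses); the dotted line is the median of all tested genes, -0.0432 in members. Numbers at the right give genes higher and lower past the threshold of those tested. Ribosomal protein genes lie at 2.10 and 1.37, and long neural genes at -0.78 in members.

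Mitosis genes gave different counts in the depth ranges. In members, 31 of 31 were higher (median 1.74). Above 1500 counts 1 of 32 rose (median 0.27), and 7 of 32 without C11. Mki67, a marker of dividing cells, was at 960 CPM in members and 442 in contrast nuclei of RP1, 1106 and 369 in RP2, 2805 and 821 in RPC1, and 3687 and 989 in RPC2. Its difference in the deeper nuclei was 0.50 ± 0.25 (edgeR adjusted p = 0.24). Top2a, topoisomerase II alpha, was at 690 and 226, 860 and 302, 1796 and 330, and 1545 and 388 CPM, with 0.68 ± 0.23 in the deeper nuclei (adjusted p = 0.086 by edgeR). Cenpf, a kinetochore protein, was the mitosis gene that rose there, by 0.94 ± 0.24. Genes of DNA replication moved less. Of 29 S phase genes in members 8 were higher and 1 lower, and in the deeper nuclei 3 of 30 rose. The lower one was Pola1, a subunit of DNA polymerase alpha, at -0.53 ± 0.20. Whether the difference between the depth ranges exceeds error was not tested.

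Long noncoding RNAs kept in the nucleus and long neural genes were on the lower side. Of 12 nuclear-retained RNAs 6 were lower and 1 higher in members (median -0.79). Malat1, a noncoding RNA of nuclear speckles, was at 8869 CPM in members and 11104 in contrast nuclei of RP1, 6424 and 13218 in RP2, 2434 and 6819 in RPC1, and 4825 and 13973 in RPC2. Kcnq1ot1, a noncoding RNA that silences an imprinted region, was at 375 and 650, 304 and 578, 162 and 554, and 157 and 478 CPM. Members were lower in each animal for both. In the deeper nuclei none of 13 was past the threshold with all wells, and 7 of 13 fell without C11. Of 43 long neural genes, 27 were lower and none higher in members (median -0.78). In the deeper nuclei 1 of 47 rose and none fell, and without C11 2 rose and 29 fell, among them Nlgn1, a postsynaptic adhesion molecule, by 1.28.

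Markers of cell types were read as lists, to see which cells the members came from. Neuroendocrine tumor markers summed to 5697 to 9572 CPM in members and 5275 to 7566 in contrast nuclei, ranges that overlapped. Of 18 tested, 10 were higher and 2 lower in members (median 0.65), and 7 of 19 rose in the deeper nuclei. Syt1, a synaptic vesicle protein with a long gene, was at 1580 and 2251, 669 and 1535, 568 and 1540, and 953 and 1985 CPM. Syt1 was lower in members of each animal.

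Markers of other cell types were low but differed. Fibroblast markers summed to 143 to 454 CPM in members and 27.5 to 56.1 in contrast nuclei, with 3 to 4 of 9 markers at 0 in either group. The 3 tested, Col1a1, Col1a2 and Col3a1, all encode fibrillar collagen chains and were all higher in members, and 3 of 5 rose in the deeper nuclei. Col1a1 was at 59.8 and 9.91, 123 and 5.10, 92.7 and 8.71, and 41.6 and 6.12 CPM. Lum and Tcf21, other defining markers of fibroblasts, were at 0. Club markers summed to 131 to 1120 CPM in members and 91.2 to 190 in contrast nuclei. Scgb1a1, the main secretory protein of club cells, was at 16.2 and 13.9 CPM in RP1 but at 276 and 40.8 in RP2, 394 and 72.9 in RPC1, and 824 and 85.6 in RPC2. Cyp2f2, another club marker, was at 3.23 and 3.96, 58.0 and 25.5, 81.1 and 15.2, and 18.5 and 21.4 CPM, higher in RP2 and RPC1 only (1.19 ± 0.45). Aldh1a7, also of this list, missed the threshold (0.52 ± 0.23, edgeR adjusted p = 0.092). The club sums thus followed Scgb1a1 more than these markers. Alveolar type 2 markers summed to 205 to 791 CPM in members and 206 to 591 in contrast nuclei, and 4 of 7 were higher. Sftpc, surfactant protein C, was one of them at 2.47 ± 0.40. Markers of B cells (61.4 to 200 CPM against 195 to 644), T or NK cells (301 to 889 against 949 to 1559) and endothelium (635 to 823 against 1151 to 2401) were lower in sum. The sums of the T or NK and endothelial lists were mostly those of 1 long gene each. Skap1 gave 793 of the 889 CPM in members and 1096 CPM in contrast nuclei of RP1, while Bcl11b, another T cell marker, differed by -0.07 ± 0.45. Vwf gave 2017 of the 2401 CPM in contrast nuclei of RPC1. All 3 tested B cell genes and 3 of 5 endothelial genes were lower in members, Bank1, a signaling adaptor of B cells, by 1.91 and Vwf, von Willebrand factor, by 0.86 on the log2 scale. In the deeper nuclei no B cell or endothelial gene was past the threshold. Erythroid markers summed to 34.8 to 162 CPM in members and 29.4 to 61.4 in contrast nuclei. Fewer cells of a type and less RNA per cell cannot be told apart in such sums, and the part of these markers in the results above was not tested.

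Nuclei without a single count of a non-tumor marker made up 23.7%, 18.3%, 6.12% and 9.57% of members and 9.91%, 7.83%, 2.29% and 10.5% of contrast nuclei in RP1, RP2, RPC1 and RPC2. A shallower nucleus has fewer chances of such a count, and members were shallower than contrast nuclei, so these shares do not compare tumor content. Restricted to them, the fit of members against contrast nuclei called 77 of 707 genes tested, 69 of them higher. RPC1 then held 6 members and 18 contrast nuclei, and RPC2 27 members, so far fewer counts entered this fit.

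The targeted genes were read in members as well. Casp8, a protease that starts programmed cell death, was at 48.5 CPM in members and 69.4 in contrast nuclei of RP1, 41.0 and 64.6 in RP2, 34.8 and 106 in RPC1, and 41.6 and 58.9 in RPC2. Rb1, the retinoblastoma protein, was at 221 and 297, 140 and 393, 185 and 353, and 176 and 460 CPM, a difference of -0.87. Trp53 was too low in these sums to be tested. The deleted parts of the genes are not given in the sources used here, so these counts do not check the labels.

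RPC members were compared with RP members to see which of their genes go with the genotype. Of 5644 genes tested by edgeR, 5 were higher (0.0886%) and 11 lower (0.195%) in RPC, 0.283% in all, and 865 had an unadjusted p under 0.05. Both RPC animals lay above both RP animals in 29.2% of all genes, and below them in 17.7%. Pabpc4 (ENSMUSG00000011257), a poly(A)-binding protein, was at 696 CPM in RP1 and 877 in RP2 but at 34.8 in RPC1 and 97.2 in RPC2, a log2 difference of -3.54 ± 0.46 (edgeR adjusted p = 0.00251). Gm30835 was at 208, 232, 34.8 and 13.9 CPM (-3.55 ± 0.53, edgeR adjusted p = 0.00751). Npas3, a neural transcription factor, was at 233, 208, 23.2 and 46.3 CPM. These genes were lower in both RPC animals, without overlap. In contrast nuclei Pabpc4 was at 654, 267, 31.6 and 40.5 CPM, and Gm30835 at 176, 515, 22.9 and 20.6. Npas3 was at 303, 338, 32.7 and 112 CPM there. Pabpc4, Gm30835 and Npas3 were thus lower in contrast nuclei of both RPC animals too, and not in members alone.

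The higher ones were Txnip, an inhibitor of thioredoxin, at 116, 116, 788 and 458 CPM (2.25 ± 0.38, edgeR adjusted p = 0.0121), Cxcl13, a chemokine, at 113, 44.4, 533 and 305 CPM, Mt2, a metallothionein, at 30.7, 20.5, 127 and 148 CPM, Fmo2, a monooxygenase of lung, at 4.85, 6.83, 151 and 78.6 CPM, and Muc5b, an airway mucin, at 6.46, 13.7, 185 and 64.8 CPM. In contrast nuclei Txnip was at 77.3, 68.0, 227 and 222 CPM, and Cxcl13 at 53.5, 13.6, 108 and 97.9. Fmo2 was at 5.95, 28.9, 111 and 69.6 CPM there. Txnip, Cxcl13 and Fmo2 were thus higher in contrast nuclei of both RPC animals too. Mt2 (21.8, 3.40, 18.5 and 25.2 CPM) and Muc5b (9.91, 1.70, 21.8 and 6.12 CPM) overlapped between genotypes there. The club cell marker Scgb1a1 was at 16.2, 276, 394 and 824 CPM in members, and its part in these differences was not tested. Without C11 no gene was higher and 3 of 4015 were lower (0.0747%), Pabpc4, Gm30835 and Cap1, a regulator of actin. Without RP2, 410 genes were past the threshold, and without any other single animal 36 to 42. None of the 16 kept its call in every alternative. Ptma missed the threshold in RPC against RP members (0.92 ± 0.69, edgeR adjusted p = 0.54), as did Casp8 (-0.33 ± 0.53) and Rb1 (-0.16 ± 0.36).

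Of the 11 lower genes, 4 lie next to each other on chromosome 4, a place looked up after the calls: Ppt1, Cap1, Trit1 and Pabpc4, within GRCm39 chr4:122730010-123192720. The ends of this stretch were set by the called genes, so their lower values in it follow from that choice. The other tested genes in it were Mycl, a MYC family transcription factor, and Ppie. Both had lower values in RPC members without overlap, as did 17.7% of all genes tested, but missed the threshold (edgeR adjusted p = 0.123 and 0.103). Mycl was at 118, 256, 34.8 and 64.8 CPM in members, and at 67.4, 61.2, 4.35 and 7.65 CPM in contrast nuclei. The difference was therefore seen in both groups of nuclei.

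Whether members stood apart from contrast nuclei to a different extent in RPC and RP was tested as an interaction. Of 9841 genes, 1 was higher (0.0102%) and 6 were lower (0.061%) by edgeR, 0.0711% in all, and 956 had an unadjusted p under 0.05. DESeq2 called 0, with 207 genes at an unadjusted p under 0.05, and without C11 edgeR called 0, with 448. It also called 0 without RPC2, with 771, and called 1 without RPC1 and 212 without RP2.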

How the data were processed

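Nuclei from lung tumors of 4 mice were fixed and barcoded by split-pool indexing (Parse Evercode WT Mega v2). Alignment to GRCm39 (Ensembl annotation), assignment to animals and counting were done by the authors with Parse software, and raw transcript counts were deposited as 1 matrix per animal. Of the 12 columns of the deposited table of nuclei, 6 were not used. Members, gene lists and tests were chosen with earlier results of these data known. No doublet caller was run. A few genes that the rules below select are not reported here. Counts were summed per animal and class without Rn18s-rs5 and tested with edgeR 4.0.16 (quasi-likelihood, legacy form, TMM, filterByExpr, two-sided, Benjamini-Hochberg adjusted p under 0.05; DESeq2 1.42.0 as alternative). Nuclei are not replicates. SE is the absolute log2 difference over the square root of F. CPM exclude Rn18s-rs5. On simulated counts with log2 changes of 1 and 2, the fit of members against contrast nuclei recovered 23.7% and 94.9%, that of deeper nuclei 39.5% and 90.8%, that of RPC against RP members 9.89% and 70.8%, and the interaction 2% and 11%. Gene spans came from the GRCm39 annotation in the reference, matched by identifier for 56323 of 56941 genes. rRNA-like stretches were found with BLAST 2.17.0+. Named were Rn18s-rs5, Ptma, Actb, Tmsb4x, Casp8, Rb1, Trp53, the 12 largest differences each way among genes past the threshold with average log2 CPM of at least 7 and 1 sign in 4 animals, the largest called differences in RPC members, and examples of the lists chosen with values known. Alternatives varied the limits, scaling, filter, block, animals and wells.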

Additional observations from a re-analysis of the deposited data

Results flagged for a closer look

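Between genotypes, 7 genes differed in how far members stood from contrast nuclei, as log2 difference of RPC minus RP (edgeR interaction, adjusted p under 0.05). Sftpc showed 2.72, Mctp1 -2.98, Kpna1 -1.77, Slc20a2 -3.20 and 4732471J01Rik -2.40. Gm2682 had 43.6 and 31.7 CPM in RP1 and 20.5 and 15.3 in RP2, but 0 and 74.0 (RPC1) and 0 and 22.9 (RPC2); its fitted value of -8.0 rests on the members of RPC at 0 and gives no fold. None of the 7, among which 6 are given here, was past the threshold with DESeq2 or without well C11.

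For Plk5, the log2 ratio of members to contrast nuclei in RP1 (-0.39) lay apart from those of RP2 (-1.80), RPC1 (-1.63) and RPC2 (-1.87). The gap took 0.837 of the range, above the critical value of Dixon for 4 values. Members of RP1 had Plk5 at 169 CPM in well C11 and at 60.7 in C12, beside 210 in contrast nuclei of C12. The part of the well in this gap was not tested. Chance alone puts about 1 in 20 such groups above the limit, and the content measures and all genes with the largest differences were screened.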

How the results depend on the processing

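Of 131 alternatives to the counts and differences of the comparisons, 100 stayed near the main result. Counts of called genes had to lie within 1.5 times the main count. Shares and content measures had to keep their sign and move by less than the SD between animals, and no threshold of p entered there. The share of members in RPC minus RP was -11.3 points at a limit of 10% Rn18s-rs5 and -2.68 without C11 of RP1. The nuclear-retained share, members minus contrast nuclei, was -1.05 points against nuclei under 3%. Genes called between members and contrast nuclei were 2403, and 1042 (without RPC2) to 3072 (without RP1) leaving out 1 animal, 1575 with DESeq2, 1300 with no replicate block (animal), 1280 at a limit of 10%, 1055 at 300 to 1000 counts and 77 in nuclei without non-tumor markers. Above 1500 counts, 933 were called, and 344 (without RPC2) to 1827 (without RP1), 1925 with no filter, 179 without the block, 2236 at a limit of 20%, 1520 at up to 3000 counts and 3279 without C11. Between RPC and RP members 16 were called, and 36 (without RPC2) to 410 (without RP2; the lone animal of a genotype is then assumed to vary like the others), 77 with no filter, 254 at 10%, 3 without C11 and 0 in nuclei without non-tumor markers (56 at an unadjusted p under 0.05 by edgeR). With the animal number as replicate block 71 were called; the numbers name different animals (correlation of deviations -0.056 and 0.056), so they do not pair. The interaction gave 7, and 0 (without RPC2) to 212 (without RP2), 0 with DESeq2, 1 at 20% and 0 without C11. The causes were not tested.

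The sign turned for Negr1 in members (0.15 with no block). Above 1500 counts they turned for Banf2 (-0.56 to 0.10 leaving out 1 animal, 0.13 with no block), Bank1 (-0.595 to 0.36 leaving out 1 animal, -0.17 with DESeq2, -0.0891 at 20%) and Pax5 (-0.00965 to 0.69). Between RPC and RP members they turned for Rb1 (-0.39 to 0.13 leaving out 1 animal, 0.10 at 20% and at 300 to 1000 counts, 0.43 without C11) and Dock1 (-1.57 to 1.27). Of 69 genes past the threshold in members and examined singly, 48 kept direction and side under every alternative, and of 15 between genotypes none. With no filter the median of all genes shifted to -0.28 in members, -0.36 between genotypes and -0.49 in the interaction. Members of RPC1 were 98 nuclei, which limits what could be called there.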
